A study of Rattus norvegicus with 24 samples.

Results

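Kap, the gene of the kidney androgen-regulated protein, was followed pair by pair in kidneys of rats compared between low and high salt. Probes were taken by the gene symbol Kap in the annotation of the array. This gave 2 of 3742 probes, of which 1 held values and the other held none on any array, so each Kap value below is from 1 probe among 1766 measured probes. The gene was selected on its log ratios in these same pairs, where it stood among the lowest probes. Its levels are therefore given as a description, with no test.

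Each of 24 cDNA arrays with 2 channels compared total RNA of kidney from 2 rats of the same strain, labelled in Cy5 and Cy3. The groups were SS, the Dahl salt-sensitive strain, at 3 days and overnight, and SS-13BN/Mcw, an SS rat whose chromosome 13 comes from the Brown Norway strain, at 3 days and overnight. Titles name low salt (LS) and high salt (HS) for each array without saying which rat of the pair had which diet, and the labels give no age, sex or kidney region. Each group held 3 pairs of rats, every pair was hybridised with the dyes both ways, and each array held values for 877 to 1412 probes. The number of rat pairs limits the precision.

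In mouse kidney Kap is a classical androgen-responsive gene of the proximal tubule, the segment that reclaims most of the filtered salt, sugars, peptides and amino acids. Its messenger RNA there rises with androgen and answers to other hormones as well. The mouse protein binds cyclophilin B, and mice that make more of it in the proximal tubule have raised blood pressure. Its promoter is widely used to drive transgenes in proximal tubule cells of mice.

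In the rat genome Kap lies on chromosome 4, outside the chromosome 13 that separates the strains. The 250 bases before its start (RefSeq, GRCr8, chr4:168409033-168409282, minus strand) are shown because hormone control of the mouse gene runs in part through its promoter. The capitals mark AGAACA, 1 arm of the element that the androgen receptor and related steroid receptors recognise, which was searched as AGAACA and as TGTTCT for the other strand.

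Kap promoter: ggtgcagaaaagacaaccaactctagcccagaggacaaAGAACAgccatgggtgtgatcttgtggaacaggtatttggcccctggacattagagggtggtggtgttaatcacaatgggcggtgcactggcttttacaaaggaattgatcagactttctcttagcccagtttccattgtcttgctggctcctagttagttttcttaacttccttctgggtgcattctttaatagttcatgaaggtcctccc

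There was 1 match, beginning 212 bases before the start. The same letters stood on either strand in 17.5% of 33469 promoter windows of this length, and the match is a description, not a site of binding.

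Values are the deposited log ratios after the median of each array was set to 0. The log base and the rat in the numerator are not stated, so no folds and no direction with salt are given: a negative value says only that Kap lay below the middle of all probes in that ratio. The value of a pair is the mean of its arrays with the dyes both ways. That mean treats the deposited ratios as already turned to one rat-to-rat direction. The arrays of a pair gave like deviations from the other arrays of their dye orientation in 12 of 12 pairs (r from 0.169 to 0.825 over probes). If the ratios were instead Cy5 over Cy3 and 1 array of each pair were turned, Kap would stand at 0.23 in SS at 3 days, 0.02 in SS overnight, 0.09 in SS-13BN/Mcw at 3 days and 0.15 in SS-13BN/Mcw overnight. The array turned was the one with the low-numbered rat in Cy5. Turning the other instead would reverse every sign, so the sign of these values carries no meaning. The values that follow, negative ones included, hold for the ratio as deposited. In bulk kidney RNA fewer proximal tubule cells and less Kap RNA per cell cannot be told apart.

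Kap was below 0 on all 23 arrays that measured it. In SS at 3 days pair 1 stood at -1.61 with the low-numbered rat in Cy5 and at -1.41 with it in Cy3. Pair 2 stood at -0.91 and -0.01 in the same order of dyes, and pair 3 at -0.74 and -0.48. Pair 1 lay well below the others, and pair 2 had the widest gap between its arrays of all pairs, with its value near 0 on the array that measured the fewest probes (877).

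In SS overnight pair 1 stood at -0.60 with the low-numbered rat in Cy5 and at -0.41 with it in Cy3. Pair 2 stood at -1.72 and -1.82, and pair 3 at -0.67 and -0.66. The arrays of a pair lay close together here, and pair 2 lay far below the other pairs.

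In SS-13BN/Mcw at 3 days pair 1 stood at -1.90 with the low-numbered rat in Cy5 and at -1.52 with it in Cy3. Pair 2 stood at -2.05 and -1.83, and pair 3 at -1.45 and -1.53. All 6 arrays were low, and the pairs were more alike than those of SS. In SS-13BN/Mcw overnight pair 1 stood at -1.31 and -0.82 and pair 2 at -1.51 and -1.38, in the same order of dyes. Pair 3 had a Kap value on 1 array only, -2.74 with the low-numbered rat in Cy3. This was the lowest Kap value of all arrays and came from the array with the widest spread over probes (SD 0.544, against 0.255 on the narrowest array). As the other dye orientation had no value, that pair is left out of the group mean.

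The gap between the arrays of a pair ran from 0.0164 to 0.899 with a median of 0.203, and the 11 pair values had an SD of 0.553. Among 771 probes with at least 11 pair values, 35.3% had a smaller median gap than Kap and the middle probe had 0.253. In 9 of 11 pairs the value was the lower one with the low-numbered rat in Cy5.

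**Figure D1:**
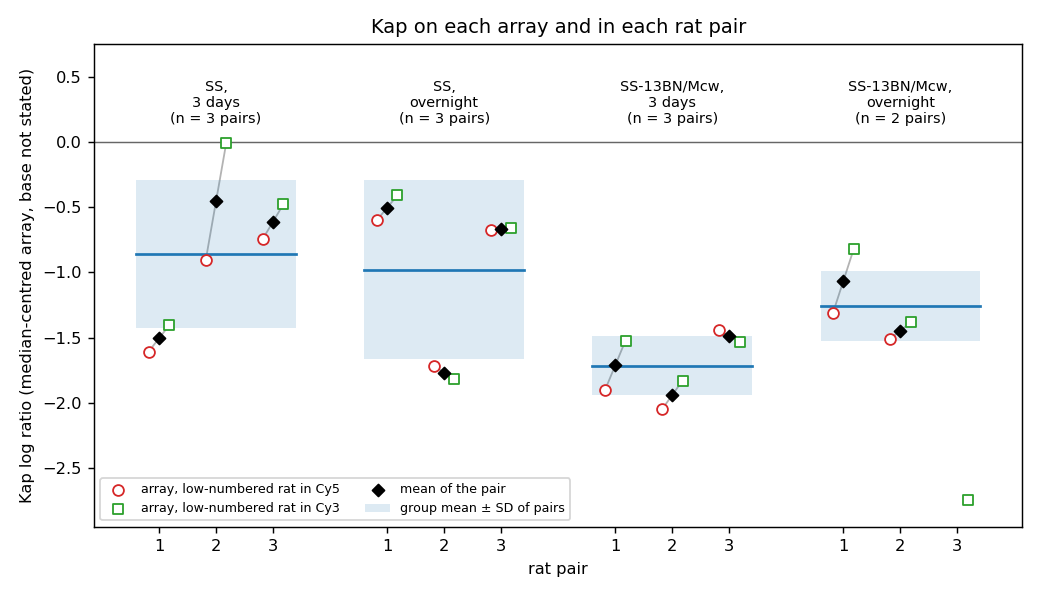
Kap log ratio (vertical axis, median-centred, base not stated) by rat pair (horizontal axis) in each group. Open symbols are single arrays, diamonds the pair means, lines and bands the group mean ± SD over pairs. Pair 1 of SS at 3 days and pair 2 of SS overnight lie among the SS-13BN/Mcw pairs, and the single array of pair 3 of SS-13BN/Mcw overnight is the lowest point.

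Group means were -0.86 ± 0.57 in SS at 3 days (SD, n = 3 pairs), -0.98 ± 0.69 in SS overnight (n = 3), -1.71 ± 0.23 in SS-13BN/Mcw at 3 days (n = 3) and -1.26 ± 0.27 in SS-13BN/Mcw overnight (n = 2). Taken from the highest, the order was SS at 3 days, SS overnight, SS-13BN/Mcw overnight, SS-13BN/Mcw at 3 days. The first 3 groups in this order differed from their neighbours by less than the SD of the SS groups, with pair values that overlapped. The last 2 had pair values that did not overlap, but only without the single array named above, and with it counted the overnight mean was the lower one, at -1.75. Pair values of SS and SS-13BN/Mcw overlapped at both times.

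At 3 days SS minus SS-13BN/Mcw was 0.86 ± 0.33 (standard error of limma's fit over all probes). Pair 1 of SS, at -1.51, lay just below the highest SS-13BN/Mcw pair, at -1.49. Without pair 1 of SS the difference was 1.18. Overnight the difference between the strains was 0.28 ± 0.37, and it was 0.77 with the single array of pair 3 of SS-13BN/Mcw counted as a pair.

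Between times, 3 days minus overnight was 0.12 ± 0.34 in SS, and without pair 2 of SS overnight it was -0.27. In SS-13BN/Mcw it was -0.46 ± 0.37, with pair values that did not overlap among the 5 pairs. That separation rests on the missing array: with the -2.74 of pair 3 counted, the overnight mean was -1.75 and the difference 0.04. Rats 1 to 3 of each strain are named in titles of both times, each with another partner rat at each time. A value is thus a ratio of the pair and not a level of 1 rat. In SS the low Kap value was that of the pair with rat 1 at 3 days (-1.51, against -0.51 overnight). Overnight it was that of the pair with rat 2 (-0.46 at 3 days, against -1.77 overnight). The pairs with rat 3 of SS had -0.61 at 3 days and -0.67 overnight. In SS-13BN/Mcw the pairs with rat 1 had -1.71 at 3 days and -1.07 overnight, and those with rat 2 -1.94 and -1.45 in the same order. Each SS group had a run of slide numbers to itself, so in comparisons with an SS group the order of slides and the group cannot be told apart.

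A rank needs no log base, but it does need the direction of the ratio. With the ratios as deposited, Kap had the lowest mean of 883 probes in SS at 3 days, of 1139 in SS overnight and of 907 in SS-13BN/Mcw at 3 days, and it was number 10 of 1100 from the lowest in SS-13BN/Mcw overnight. In that last group the Kap mean covers 2 pairs and lacks pair 3, which means of other probes can include. Within its pairs 1 and 2 Kap was number 3 of 1244 and number 3 of 1059. Turning by dye was added for this rank after seeing the data. With the array that has the low-numbered rat in Cy5 turned, Kap was number 822 of 883, 614 of 1139, 636 of 907 and 900 of 1100 from the lowest in the same order of groups. With the other array turned instead, the ranking would be reversed and these would be ranks from the highest. Its place among the 10 lowest means thus holds only without turning. On single arrays as deposited its median rank from the lowest was 5, it was among the 10 lowest probes on 16 of 23 arrays, and it was in the lowest 5% on 21. Both exceptions were in SS, pair 1 overnight at the 11.3 percentile with the low-numbered rat in Cy3 and pair 2 at 3 days at the 48.8 percentile in that same orientation.

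The probes next to Kap in these rankings included several other genes of the proximal tubule. Next above it in mean came Gsta2, a glutathione transferase, at -0.85 in SS at 3 days, and Anpep, the brush border aminopeptidase N, with a mean of -0.90 in SS overnight, and with one of -1.62 in SS-13BN/Mcw at 3 days. Aadat, an aminotransferase of lysine and kynurenine breakdown, followed within the next 3 places in each of these groups. In SS-13BN/Mcw overnight Ggt1, a brush border enzyme that splits glutathione, the endocytic receptor Lrp2 (megalin) and the aldehyde reductase Akr7a3 had means just below Kap at -1.35, -1.33 and -1.31, and Slc27a2, a fatty acid transporter and ligase, just above it at -1.23. These means do not cover like pairs. That of Kap lacks pair 3, whereas Ggt1, Lrp2 and Akr7a3 include it, with Ggt1 at -2.17 and Lrp2 at -2.08 there. In pairs 1 and 2 Ggt1 (-0.93 and -0.95) and Lrp2 (-0.73 and -1.175) lay above Kap (-1.07 and -1.45).

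**Figure D2:**
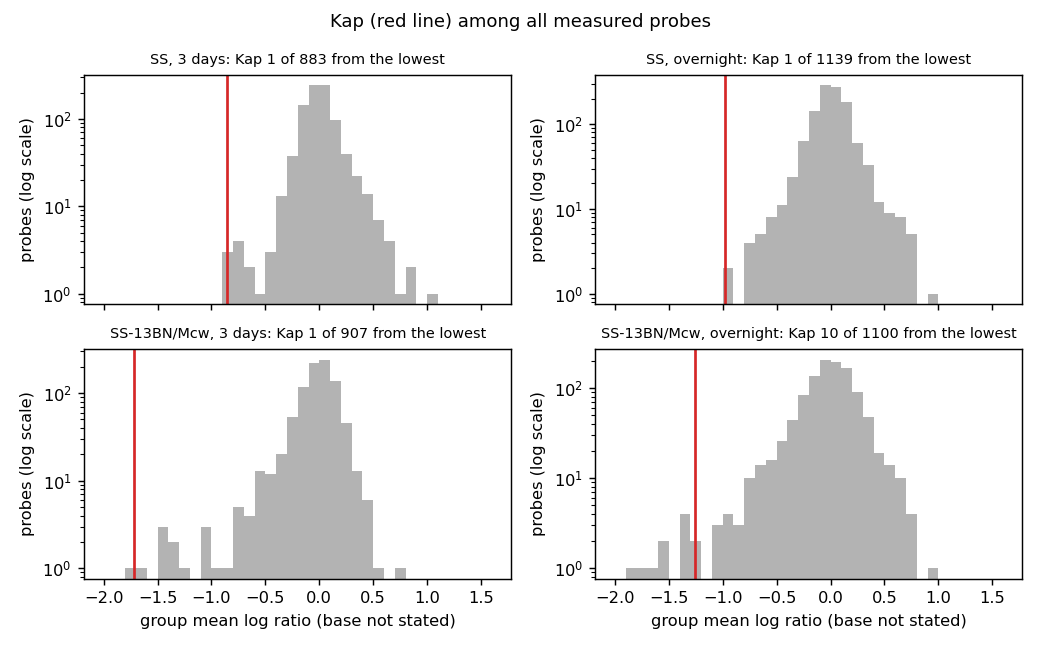
Number of probes (vertical axes, log scale) by group mean log ratio (horizontal axes, base not stated), with the Kap mean as a red line, for the ratios as deposited. Kap is at the low edge in SS at 3 days, SS overnight and SS-13BN/Mcw at 3 days. It is 10 of 1100 from the lowest in SS-13BN/Mcw overnight, where its mean covers 2 pairs and lacks pair 3. With the array that has the low-numbered rat in Cy5 turned it would stand at the 53.9 to 93.1 percentile from the lowest. With the other array turned the ranking would be reversed.

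A list of 42 other proximal tubule genes, of which 23 had values, was set beside Kap. It was written with earlier results of these data known. Of these genes 9 had a value in all 12 pairs, and the median of those 9 was compared with Kap within each pair. In SS at 3 days that median was -0.76, -0.23 and -0.14 in pairs 1, 2 and 3, where Kap had -1.51, -0.46 and -0.61. In SS overnight it was -0.59, -0.37 and -0.25, where Kap had -0.51, -1.77 and -0.67. Kap was below the median in 5 of 6 SS pairs. Kap minus the median was -1.40 in pair 2 overnight, where 0 of 17 measured proximal tubule genes were lower and Kap was the lowest of 1117 probes.

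In SS-13BN/Mcw at 3 days the 9 genes had a median of -0.76, -0.89 and -1.16 in pairs 1, 2 and 3, where Kap had -1.71, -1.94 and -1.49. In SS-13BN/Mcw overnight it was -0.71, -0.87 and -1.39, where Kap had -1.07, -1.45 and, on 1 array, -2.74. All 5 pair values of Kap lay below the median here, and Kap minus the median ran from -1.05 to -0.33. Pair 3, with the lowest median of the 9 genes overnight, was the pair whose 1 Kap array was the lowest. Its arrays also had the widest spreads over probes (SD 0.544 and 0.505).

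**Figure D3:**
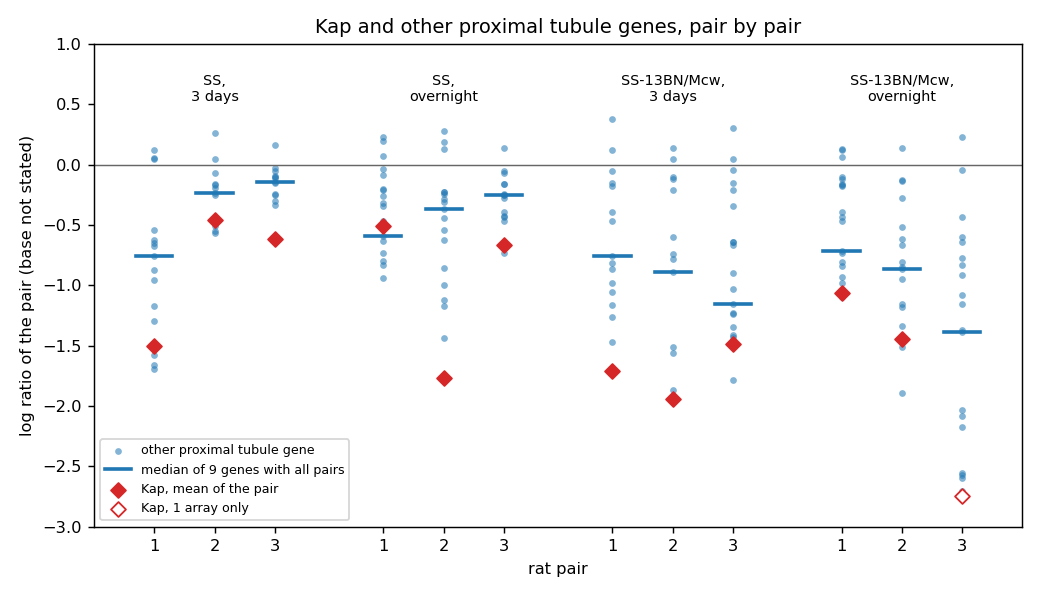
Log ratio (vertical axis, base not stated) of Kap (diamonds) and of other measured proximal tubule genes (dots) in each rat pair (horizontal axis). Bars are medians of the 9 genes measured in all pairs, and the open diamond is the 1 array of pair 3 of SS-13BN/Mcw overnight. Kap lies below the bar in every pair but pair 1 of SS overnight.

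Against 0, tested by limma with Benjamini-Hochberg adjustment over all tested probes, 0 of 13 proximal tubule genes passed on the negative side in SS at 3 days, where 0% of 883 probes did. Without adjustment 9 of the 13 had a p under 0.05. In SS overnight 1 of 17 passed, where 0.176% of 1139 probes did: Hpd, an enzyme of tyrosine breakdown, at -0.49 ± 0.14 (SD, n = 3, adjusted p = 0.0305). In SS-13BN/Mcw 7 of 16 passed at 3 days (background 2.32% of 907 probes) and 13 of 21 overnight (7.36% of 1100). As the list was written with earlier results of these data known, its share beside the background is a description only. On the positive side 0 passed in any group, with 1 at an unadjusted p under 0.05 (Aqp1 in SS-13BN/Mcw at 3 days). In either direction 0.34% and 1.14% of all tested probes passed in SS at 3 days and overnight, and 2.98% and 10.5% in SS-13BN/Mcw at 3 days and overnight. The medians over the list were -0.39 and -0.49 in SS at 3 days and overnight, and -0.81 and -0.75 in SS-13BN/Mcw at 3 days and overnight, beside -0.01, 0.01, -0.00300 and -0.00157 over all tested probes of the same groups.

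These counts rest on single pairs. At 3 days 0 proximal tubule genes passed in limma in SS-13BN/Mcw without its pair 2 or without its pair 3, where 11 and 7 had an unadjusted p under 0.05. Without pair 1, 6 passed. Overnight 4 passed without pair 3, with 11 without pair 1 or pair 2, and 0 when the group was fitted alone, with 17 at an unadjusted p under 0.05. Members of the list with the smallest p in SS-13BN/Mcw at 3 days were Slc15a2, a peptide transporter, at -0.93 ± 0.20 (SD, n = 3, adjusted p = 0.0146), Aadat at -1.47 ± 0.0434 (adjusted p = 0.0146), the brush border peptidase Dpp4 at -0.60 ± 0.18 and the peroxisomal oxidase Hao2 at -1.35 ± 0.18 (both adjusted p = 0.0202). Proximal tubule genes did not all share the low side. The water channel Aqp1 stood at 0.09 ± 0.0657 in SS at 3 days, 0.11 ± 0.0358 in SS overnight, 0.19 ± 0.10 in SS-13BN/Mcw at 3 days and 0.05 ± 0.0904 in SS-13BN/Mcw overnight, none past the test, and Fbp1, an enzyme of glucose synthesis, was also positive where it was tested.

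Pattern over pairs was compared by Pearson's r over the 11 pairs with a Kap value, among 597 genes measured in all 12 pairs. The r are descriptions of how alike the rows of values are. Genes of a pair share the same arrays, and pairs of a strain may share a rat. The highest was Hao2 (r = 0.941), followed by Gsta2 (0.889), Anpep (0.864), Acsm2, a medium-chain acyl-CoA ligase (0.862), Nucb1, a calcium-binding protein of the Golgi (0.833), Aadat (0.82), Ptms, or parathymosin (0.788), and Mme, the brush border peptidase neprilysin (0.757). The median over the 597 genes was 0.0423, and 5 of the 8 genes were on the proximal tubule list. That list, written with earlier results of these data known, had 9 genes among the 597. The r of these 9 ran from -0.300 to 0.941 with a median of 0.757. Likeness was not shared by all of them: Hpd had -0.106 and Aqp1 -0.3.

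The sizes of their values differed. Hao2, Gsta2, Anpep, Acsm2 and Aadat were close to Kap in size too, with a root mean square difference from it of 0.298 to 0.349, and these 5 were also the closest genes by that measure. Hao2 averaged -0.73 ± 0.50 in SS at 3 days, -0.79 ± 0.29 in SS overnight, -1.35 ± 0.18 in SS-13BN/Mcw at 3 days and -1.58 ± 0.89 in SS-13BN/Mcw overnight (SD, n = 3 pairs each). Nucb1 lay between -0.21 and 0.20 in all pairs and Ptms between -0.23 and 0.08, so they are like Kap by r and not in size. The order of pairs was not the same throughout. In SS at 3 days Kap was lowest in pair 1 and Nucb1 in pair 3. The pairs in which Kap was lowest within the SS groups were also the lowest pairs of Hao2 and Anpep there. Both genes were picked for their high r with Kap over these same pairs, so such likeness is partly built in. In pair 1 of SS at 3 days Hao2 had -1.30 and Anpep -1.66, and in pair 2 of SS overnight -1.12 and -1.44. In pair 2 of SS overnight Kap, at -1.77, was nevertheless lower than both. Proximal tubule genes did not all have that pair lowest in SS overnight. Acsm2 and Aadat did, whereas Hpd was lowest in pair 1 (-0.63, against -0.37 in pair 2) and Mme and Dpp4, by a small margin, in pair 3. Within groups, after the group mean was removed, Bcat2, a mitochondrial aminotransferase of branched-chain amino acids, was closest to Kap (r = 0.941), and Hao2 kept 0.90.

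The genes that ran most opposite to Kap were the citrate cycle enzyme subunit Suclg1 (r = -0.909), the ATP synthase subunit Atp5pb (-0.804) and S100a4, a calcium-binding protein of motile and stromal cells (-0.795). Their pair values stayed small, from -0.35 to 0.16, from -0.37 to 0.12 and from -0.27 to 0.40 in that order. Of the 8 most like genes 0 held AGAACA or TGTTCT in the 250 bases before their start, beside 17.5% of all 33469 promoter windows. A difference from Kap was not tested.

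**Figure D4:**
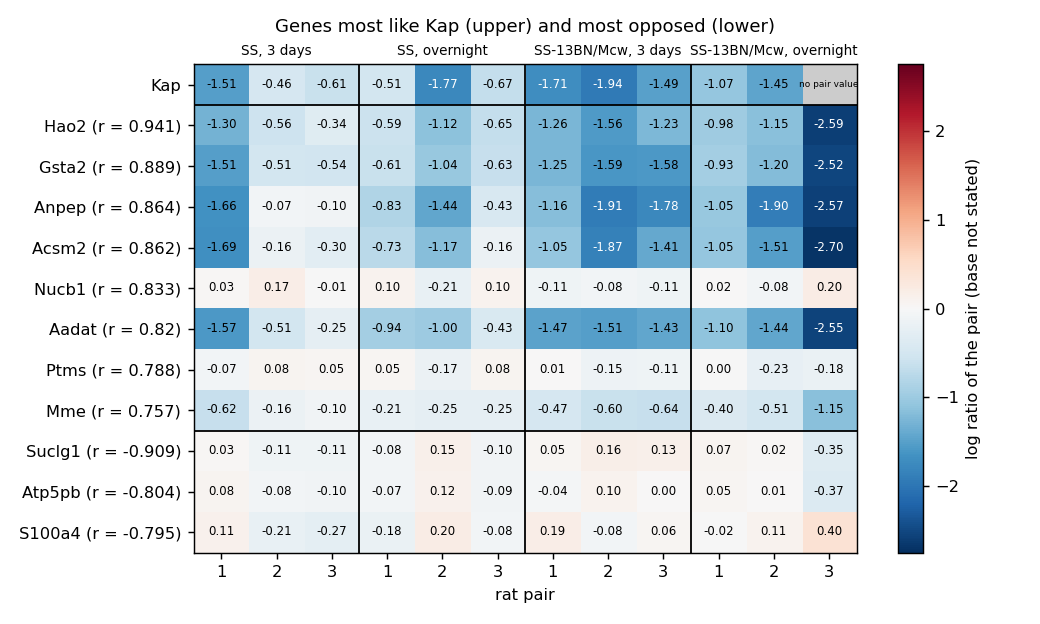
Log ratio (colour and printed value, base not stated) of Kap, the 8 genes most like it and the 3 most opposed (rows, with Pearson's r over 11 pairs) in each rat pair (columns). Hao2, Gsta2, Anpep, Acsm2 and Aadat share the size of the Kap values, whereas Nucb1 and Ptms are like Kap only by r, and the grey cell has no Kap pair value.

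Genes listed as answering to androgen were few on these arrays, with 3 of 13 measured. Odc1, the first enzyme of polyamine synthesis and a classical androgen target in mouse kidney, stood at -0.24 ± 0.36 in SS at 3 days, -0.05 ± 0.10 in SS overnight, -0.33 ± 0.0886 in SS-13BN/Mcw at 3 days and -0.46 ± 0.36 in SS-13BN/Mcw overnight (SD, n = 3 each). The last was the 1 of 3 that passed there (adjusted p = 0.0473, background 7.36% on the negative side), with 0 passing in the other groups (at an unadjusted p under 0.05, Egf in SS at 3 days and Odc1 in SS-13BN/Mcw at 3 days). Its pair 3 lay at -0.86 and pairs 1 and 2 at -0.18 and -0.34. Gusb, the lysosomal beta-glucuronidase, ran from -0.00812 to 0.15 over the group means, and the growth factor Egf from -0.25 to 0.02, neither past the test in any group. The same Egf probe is also counted among the thick ascending limb and distal genes below, so its values are not particular to the androgen list.

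Of 35 genes of steroid action, 13 were measured. The androgen receptor was not among them. Hsd11b1, which regenerates active glucocorticoid, stood at 0.06 ± 0.59 in SS at 3 days and 0.01 ± 0.13 in SS overnight, and at -1.10 ± 0.14 in SS-13BN/Mcw at 3 days (adjusted p = 0.00853), against -0.16 ± 0.22 in SS-13BN/Mcw overnight (SD, n = 3 each). Its pair values at 3 days in SS-13BN/Mcw were -0.94, -1.20 and -1.15, all below every other pair of the study that measured it. Hsd17b4, a peroxisomal enzyme of steroid and fatty acid oxidation, stood at -0.14 ± 0.10 in SS at 3 days, -0.12 ± 0.10 in SS overnight, -0.36 ± 0.18 in SS-13BN/Mcw at 3 days (adjusted p = 0.0434) and -0.35 ± 0.19 in SS-13BN/Mcw overnight (adjusted p = 0.0262).

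Agt, the precursor of angiotensin, stood at -0.09 ± 0.28 in SS at 3 days (n = 2) and -0.27 ± 0.13 in SS overnight, and at -0.72 ± 0.62 in SS-13BN/Mcw overnight, where it passed (adjusted p = 0.0419) with its pair 3 at -1.42 and the others at -0.24 and -0.51. In all, 2 of 6 tested genes of steroid action passed in SS-13BN/Mcw at 3 days, where 2.32% of all tested probes passed on that negative side, and 2 of 10 overnight, where 7.36% did. In SS 0 of 8 passed at 3 days and 0 of 11 overnight, where 0% and 0.176% of all tested probes did. At an unadjusted p under 0.05 there were 3 negative and 1 positive in SS-13BN/Mcw at 3 days, 4 negative in SS-13BN/Mcw overnight, and 1 negative in each SS group. The call rate over all probes thus differed between the strains in the same direction. The receptors Nr3c1 and Nr3c2, the growth hormone receptor Ghr, Hsd11b2, Hsd17b10, Star, Sts and Cebpd did not pass in any group, with group means between -0.63 (Ghr in SS-13BN/Mcw overnight) and 0.32 (Cebpd in the same group). Cyp11a1 and Cebpb had too few pairs to test. Cyclophilins were near 0: Ppib, the partner of the mouse protein, had group means from 0.06 to 0.16 and Ppif from -0.20 to 0.08, with 0 of 2 past the test in each group (1 on each side at an unadjusted p under 0.05 in SS-13BN/Mcw overnight).

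Markers of other cell types were set beside these values. Over the 3 pairs of a group the median of the measured stroma and matrix genes (15 of 19 listed) ran from 0.28 to 0.79 in SS at 3 days, 0.25 to 0.73 in SS overnight, -0.05 to 0.07 in SS-13BN/Mcw at 3 days and 0.27 to 0.86 in SS-13BN/Mcw overnight. On the positive side 1 of 10 matrix genes passed in SS at 3 days and 3 of 14 in SS overnight, beside 0.34% and 0.966% of all tested probes. In SS-13BN/Mcw 0 of 12 passed at 3 days and 3 of 13 overnight, beside 0.662% and 3.18%. Positive at an unadjusted limma p under 0.05 were 7 in SS at 3 days, 9 in SS overnight, 0 in SS-13BN/Mcw at 3 days and 9 in SS-13BN/Mcw overnight. Thick ascending limb and distal genes (6 of 16 measured) ran from -0.35 to -0.09 in SS at 3 days, -0.18 to -0.11 in SS overnight, -0.06 to 0.06 in SS-13BN/Mcw at 3 days and -0.34 to -0.11 in SS-13BN/Mcw overnight. In SS-13BN/Mcw overnight 1 of 5 passed, beside 7.36% of all tested probes on the negative side. This was Slc12a1, the sodium, potassium and chloride cotransporter of the thick limb, at -0.33 ± 0.0773 (SD, n = 3, limma adjusted p = 0.0239), on the same side as the proximal tubule genes. In SS at 3 days, SS overnight and SS-13BN/Mcw at 3 days 0 of 5 passed, beside 0%, 0.176% and 2.32% on that side. At an unadjusted p under 0.05 there were 3 negative in SS at 3 days, 2 in SS overnight, 0 in SS-13BN/Mcw at 3 days and 2 in SS-13BN/Mcw overnight.

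Collecting duct genes (5 of 11 measured) ran from -0.16 to -0.07 and from -0.22 to 0.01 in SS at 3 days and overnight, and from 0.06 to 0.39 and from -0.16 to -0.01 in SS-13BN/Mcw at 3 days and overnight. Among them Scnn1a, which encodes the alpha subunit of the ENaC sodium channel, passed in SS-13BN/Mcw at 3 days at 0.28 ± 0.088 (SD, n = 3, limma adjusted p = 0.0293). It was 1 of 5 tested there, beside 0.662% of all tested probes on the positive side, and 0 passed in the other groups. Hsd11b2 counts in this list and in that of steroid action. Leukocyte genes (4 of 12 measured) ran from -0.09 to 0.35 over all pairs, and only 2 of 14 glomerular and endothelial genes were measured. Ratios show no level of a gene, so presence of a cell type was not read from them, and their part in the Kap values was not tested.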

How the data were processed

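The deposited table held 1 log ratio per probe and array for 24 two-channel arrays of rat kidney total RNA; for its base, its numerator and what the authors did before deposit the labels say nothing. The deposited values were centred on the mean of each array (largest absolute mean 0.000822; largest absolute median 0.0668). Probes were named from the annotation of the array (1426 of 1766 measured probes had 1 symbol, 29 several, 311 none; 1421 were matched by gene number). Where a listed gene had several probes, the one with the most pair values was used.

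The median of every array was subtracted, and a pair's value is the plain mean of its dye-swapped arrays, with no turning of sign. limma was fitted to the 12 pairs with a coefficient for every group (eBayes, two-sided, 8 residual degrees of freedom). Tests needed values in both orientations from 2 or more pairs of the group, and the threshold was an adjusted p of 0.05. Such p-values cover only how pairs of rats vary.

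The gene, the lists and the rules were chosen with earlier results of these data known. Named genes were Kap, the 8 most and 3 least like it by r, up to 3 probes on either side of it in each ranking, all measured androgen, steroid and cyclophilin list members, and of the other lists up to 4 with the smallest p in SS-13BN/Mcw at 3 days, of which the text gives those past the test or needed. Pairing by the low-numbered rat, which titles repeat at both times, was checked: deviations from the group mean of pairs with the same rat correlated at 0.494, -0.0241 and 0.62 in SS and 0.389, 0.321 and 0.259 in SS-13BN/Mcw for rats 1, 2 and 3. The fit was tested on simulated data. Alternatives were other scalings, turning by dye, 1 dye orientation, a replicate block and leaving out pairs. Software was R 4.3.3, limma 3.58.1, statmod 1.5.0, Python 3.11.15 and matplotlib 3.10.9.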

Additional observations from a re-analysis of the deposited data

How the results depend on the processing

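Kap stayed negative in every group under all alternatives run except turning by dye, which gave 0.23, 0.018, 0.086 and 0.15 in SS at 3 days, SS overnight, SS-13BN/Mcw at 3 days and SS-13BN/Mcw overnight, and strain differences of 0.14 at 3 days and -0.13 overnight. The array turned was that with the low-numbered rat in Cy5, and turning the other would reverse all these signs. Its mean in SS-13BN/Mcw overnight was -1.65 from arrays with the low-numbered rat in Cy3 and -1.75 with the 1 array of pair 3 counted, an alternative chosen after seeing the data. The time difference in SS was -0.089 from arrays with that rat in Cy5, and in SS-13BN/Mcw 0.023 from those with it in Cy3 and 0.039 with the 1 array. Leaving out 1 pair gave Kap means from -1.06 to -0.53 in SS at 3 days, -1.22 to -0.59 in SS overnight, -1.83 to -1.60 in SS-13BN/Mcw at 3 days and -1.45 to -1.07 in SS-13BN/Mcw overnight, strain differences from 0.65 to 1.18 at 3 days and 0.04 to 0.67 overnight, and time differences from -0.27 to 0.45 in SS (below 0 at -0.08, -0.00204 and -0.27 without pair 2 or 3 at 3 days or pair 2 overnight) and -0.65 to -0.27 in SS-13BN/Mcw.

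Probes past the threshold against 0 numbered 3, 13, 27 and 116 in the same order of groups. They were 9, 51 and 61 in the first 3 groups with arrays scaled to one spread and 16, 65 and 64 after quantile normalization. Turned by dye they were 344, 325, 299 and 309. From arrays with the low-numbered rat in Cy5 they were 73 and 56 in the SS groups, and from those with it in Cy3 64, 121, 153 and 287. With the low-numbered rat as a replicate block 5 passed in SS at 3 days, and the block moved no other count by over 1.5 times (the fitted correlation was 0.285). With all 3 pairs required 1 passed there. Fitted alone, the SS groups had 0 and 31 and SS-13BN/Mcw overnight 0, with 65 and 280 at an unadjusted p under 0.05 where 0 passed. Leaving out 1 pair gave 0 to 10, 0 to 21, 0 to 50 and 12 to 144. Proximal tubule genes past the test on the negative side in SS-13BN/Mcw at 3 days were 11 after either scaling. With the array that has the low-numbered rat in Cy5 turned they were 3, and overnight also 3. Of the 8 genes most like Kap, 5 were shared with the 8 closest by root mean square difference and 5 with the 8 closest by deviations from group means. Where settings moved a value, the cause was not tested.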
